A study of Danio rerio with 16 samples.

Results

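The genes described here encode the interleukins, the chemokines and the receptors of both in zebrafish larvae exposed to triptolide (TP), a diterpenoid from the vine Tripterygium wilfordii that blocks transcription. Members were chosen by symbol. Every gene whose deposited symbol, whatever its case, starts with il, cxcl, ccl, cxcr or ccr and a digit, or with xcr1, was taken, together with the clone-named gene si:ch211-207g17.2, which is ccr2. Transcript counts were summed by Ensembl gene ID, and 134 of 31812 genes, with 213 transcripts, were members. They comprised 51 chemokine ligands, 22 chemokine receptors, 27 interleukins, 30 interleukin receptor subunits, 3 IL1RAPL genes and the gene of the enzyme IL4I1. The symbol pattern used no measured value. The deposited symbol of ccr2 does not match it, and this gene was added by name. The study had reported ccr2 as higher after TP by qPCR, and likewise il1b, il6 and il10.

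TP treated larvae (n = 8 pools) were of the strain WIK, were 5 days post fertilization (dpf) and spent 6 h in 1.6 µM TP. Control larvae (n = 8 pools) had the same strain, age and duration, and were kept in vehicle (DMSO) with 0 µM TP. Each pool was 1 dish of 30 whole larvae, so a value is an average over tissues at 1 concentration and 1 time. Total RNA was sequenced, and the authors deposited raw counts. The totals ran from 26631852 to 41093922 counts (median 34554464) in TP libraries and from 19679120 to 75490916 (median 31374554) in control libraries, of which control library 2 was the deepest. Levels are given as CPM, the counts divided by the library total and multiplied by 1000000, and 1 CPM was 34.6 counts in a TP library and 31.4 in a control library of median depth. No deposited count was odd, which would follow if the mates of a read pair were each counted. Defining markers of liver, skeletal muscle, neurons, lens, gut and skin were all above 0, as whole larvae would have them.

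Chemokines are small secreted proteins that direct the movement of cells which carry the matching receptor, which is coupled to G proteins. Interleukins are secreted signals between cells of the immune system, and most act through paired receptor chains that start JAK and STAT signalling or, in the interleukin 1 family, MyD88 signalling. In zebrafish larvae innate leukocytes and the early thymus use these signals, while pairs such as cxcl12 and cxcr4 also guide migrating cells of the embryo. Bony fish carry many more CC chemokine genes than mammals, often side by side on a chromosome, and the function of most of these has not been worked out.

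Scaled by library totals, the members were divided between a few genes that rose, a larger number that fell and a majority that passed no test. The balance of rises and falls changed with the scaling. Of 134 members, 83 had enough counts to be tested with edgeR's quasi-likelihood test, and 51 did not. With a threshold of 0.01 on the p adjusted over 24462 genes (Benjamini-Hochberg), 6 of the 83 (7.23%) were higher in TP, against 4.59% of all tested genes, and 16 (19.3%) were lower, against 41.9% of all tested genes. The other 61 were not called. Of the higher members, ccr2, il1b, ccr12b.2 and IL1R2 passed the filter on low counts only through their TP libraries. Too few of their control libraries reached its level. For IL1R2 only control library 5, at 0.3134 CPM, fell short, and by a narrow margin. Lower genes can pass through control libraries in the same way. The shares called among tested genes therefore depend in part on that filter, which was applied to all genes alike. The median log2 fold change of the 83 was -0.19, against -0.35 over all tested genes. Relative to library totals the median gene was thus lower after TP. TMM scaling, which centres most genes on no change, moved that median of all genes to -0.00107. Both scalings are relative and give no amount of RNA per larva. With TMM factors 12 members were higher (15.9% of all genes) and 8 were lower (16.5%), and the median of the members was 0.17. Without a filter on low counts, edgeR called 14 members higher (4.84% of 30216 genes) and 14 lower (33.6%). The same 6 higher members and 8 of the 16 lower ones were called with both scalings, against 4.59% and 16.5% of all genes, and these 14 are described with their full values below. Among the 83 tested members the groups did not overlap in 11, of which TP was above control in 2 (1.90% of all tested genes) and below it in 9 (20.9%). Below the filter, TP was also above control without overlap in il10, il19l and ccl35.1. The share of all genes below the filter without overlap was not computed, so this is a description only.

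**Figure D1:**
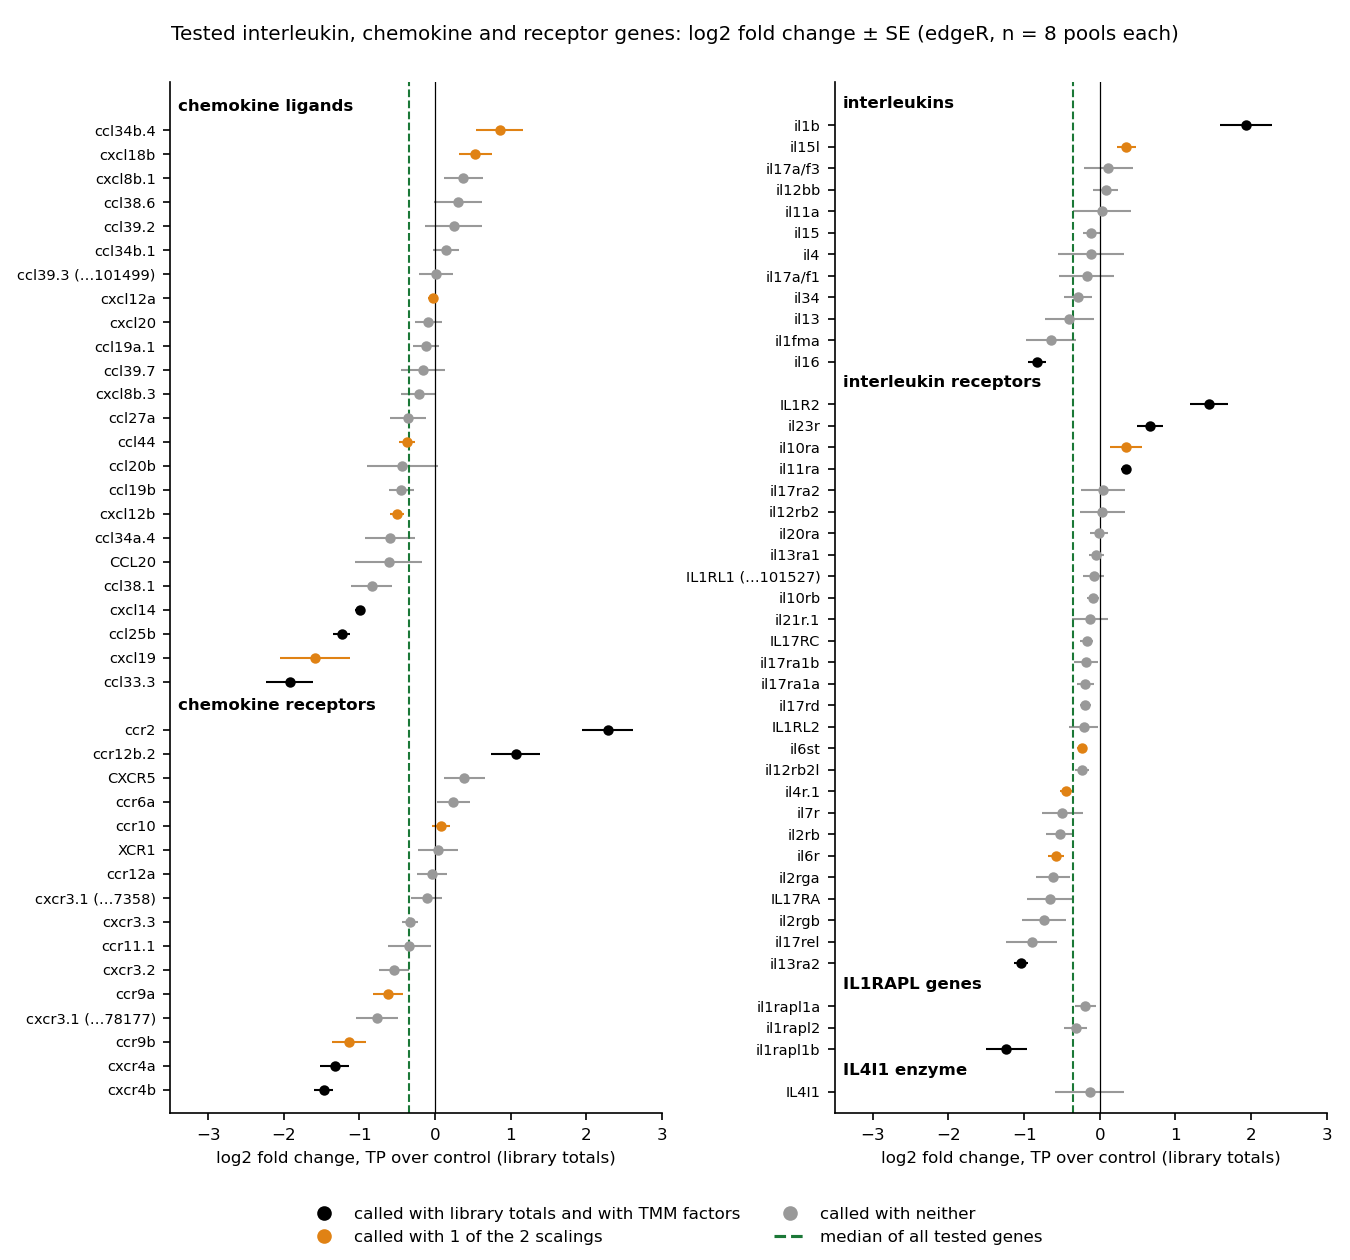
Log2 fold change of TP over control with its standard error for each of the 83 tested members, grouped by role, from edgeR with library totals (n = 8 pools in each group). The dashed line marks the median of all tested genes at -0.35, and ccr2 at 2.28 and ccl33.3 at -1.92 are the members farthest to either side. Where a symbol occurs more than once, the last digits of the Ensembl ID follow it.

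Among the chemokine ligands 24 of 51 were tested. None was called higher with library totals (4.59% of all tested genes) and 6 were called lower (41.9%). With TMM factors 3 were higher (15.9%) and 3 lower (16.5%). The summed level of the 51 ligand genes was 129 to 138 CPM in TP libraries (median 136) and 162 to 208 CPM in control libraries (median 174), with no overlap. This difference lay mainly in cxcl14 (median 19.97 CPM in TP and 39.9 CPM in control), ccl25b and cxcl12b (17.17 and 23.0 CPM). With library totals the median log2 fold change was -0.29 over the 24 tested ligands and -0.35 over all tested genes. The lower sum therefore does not show a loss across the ligand genes. ccl25b (ENSDARG00000070873, chromosome 11, 6264427 to 6268468 on GRCz10) encodes a chemokine of the CCL25 type. CCL25 signalling draws lymphoid progenitors to the thymus, but whether ccl25b itself does so was not tested here. This gene was at 10.1 to 13.7 CPM in TP libraries (median 11.4) and at 18.8 to 34.04 CPM in control libraries (median 27.5). All TP pools lay below all control pools. The log2 fold change was -1.24 ± 0.11 (SE, edgeR adjusted p = 2.3e-08).

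cxcl14 (ENSDARG00000056627, chromosome 14, 24103554 to 24113428), a chemokine gene that is strongly conserved among vertebrates, was at 18.0 to 22.4 CPM in TP libraries (median 19.97) and at 35.3 to 45.02 CPM in control libraries (median 39.9). Its groups were well separated, and its log2 fold change was -0.99 ± 0.07 (adjusted p = 7.3e-10). ccl33.3 (ENSDARG00000099401, chromosome 25, 12745435 to 12747497), a fish CC chemokine gene, was at 0.0564 to 0.915 CPM in TP libraries (median 0.565) and at 1.61 to 2.72 CPM in control libraries (median 1.93). No pools overlapped although the TP pools were widely spread, and the log2 fold change was -1.92 ± 0.31 (adjusted p = 2.8e-05). It was the largest decrease among the tested members.

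Lower with library totals alone were cxcl19 (log2 fold change -1.59 ± 0.46, adjusted p = 0.0061), cxcl12b (-0.50 ± 0.09, adjusted p = 1.2e-04) and ccl44 (-0.37 ± 0.11, adjusted p = 0.0057). With TMM factors these stood at -1.25, -0.16 and -0.03, none of them called. cxcl19 held only 34 counts in TP libraries and 108 in control libraries, and edgeR did not call it without TP library 2, 3 or 6 or control library 2, 3 or 7 (adjusted p up to 0.0163). ccl44 was not called without TP library 1, 4, 5 or 8 or control library 4, 6 or 8 (adjusted p up to 0.0138). Higher with TMM factors alone were cxcl12a (0.31), cxcl18b (0.90), which encodes an inflammatory chemokine of zebrafish, and ccl34b.4 (1.19). With library totals their log2 fold changes were -0.03, 0.53 and 0.85. The genes of the neutrophil attractant Cxcl8 that the symbol rule reached, cxcl8b.1 and cxcl8b.3, were not called at 0.37 ± 0.26 and -0.22 ± 0.23.

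Of 22 chemokine receptors 16 were tested, of which 2 were higher (4.59% of all tested genes) and 4 lower (41.9%) with library totals. With TMM factors 3 were higher (15.9%) and 2 lower (16.5%). ccr2 (ENSDARG00000079829, chromosome 16, 8755113 to 8756233), named after the receptor that brings monocytes to inflamed tissue in mammals, was at 0.564 to 1.82 CPM in TP libraries (median 1.16) and at 0.0557 to 0.392 CPM in control libraries (median 0.263). Every TP pool exceeded every control pool. The sums behind this were 332 counts in TP libraries and 66 in control libraries, and the log2 fold change of 2.28 ± 0.33 (adjusted p = 9.0e-06) was the largest increase among the tested members. It stayed between 2.13 and 2.41 when each library was left out.

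ccr12b.2 (ENSDARG00000026417, chromosome 24, 535078 to 536972), a fish CC receptor gene, was at 0.339 to 1.05 CPM in TP libraries (median 0.475) and at 0.126 to 0.457 CPM in control libraries (median 0.199). The groups overlapped. The log2 fold change of 1.06 ± 0.32 (adjusted p = 0.0078) rested on 152 counts in TP libraries and 78 in control libraries, and it lost its call in 8 of the 16 fits without 1 library. Those were the fits without TP library 1, 6 or 7 or without control library 1, 5, 6, 7 or 8, in which edgeR gave adjusted p values up to 0.0217.

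cxcr4b (ENSDARG00000041959, chromosome 9, 10721532 to 10723557) encodes a receptor of Cxcl12 that guides the lateral line primordium and germ cells of zebrafish and that leukocytes also carry. It was at 2.40 to 4.38 CPM in TP libraries (median 2.76) and at 7.22 to 10.5 CPM in control libraries (median 8.17). The pools did not overlap, and the log2 fold change was -1.48 ± 0.13 (adjusted p = 8.8e-09). Its duplicate cxcr4a (ENSDARG00000057633, chromosome 6, 12687144 to 12688869), which takes part in the growth of blood vessels in zebrafish, was at 0.475 to 1.28 CPM in TP libraries (median 0.917) and at 1.77 to 3.01 CPM in control libraries (median 2.20). Here too all TP pools were below all control pools, with a log2 fold change of -1.33 ± 0.19 (adjusted p = 6.6e-06). The Ccl25 receptor genes ccr9b (-1.14 ± 0.23, adjusted p = 2.9e-04) and ccr9a (-0.62 ± 0.20, adjusted p = 0.0099) were lower with library totals. With TMM factors they were at -0.81 and -0.29 and not called, and ccr9a kept its call only in the edgeR fits without TP library 1 or 4 or control library 1 or 7 (adjusted p up to 0.0247 in the other 12). ccr10 was higher with TMM factors alone (0.42, against 0.08 with library totals). The cxcr3 genes, whose products bind the Cxcl11 chemokines, were not called.

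**Figure D2:**
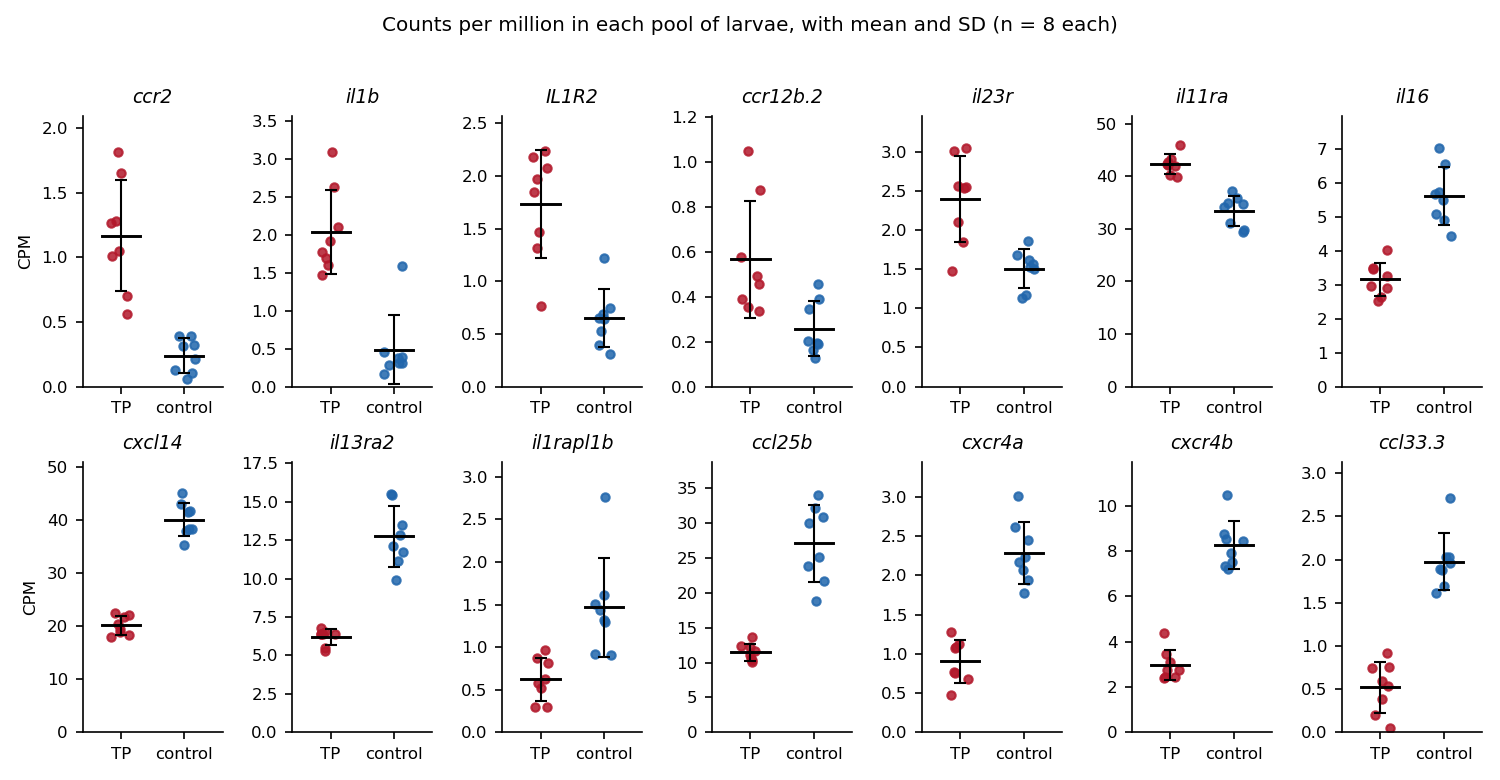
CPM in each pool for the 14 members called with both scalings, TP left and control right, as points with the mean and SD (n = 8 each). The first 6 panels are the members that were higher in TP, and the vertical axis of each panel starts at 0. Control library 2 is the single control point of il1b at 1.59 CPM, within the TP points.

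Of 27 interleukin genes 12 were tested, of which 1 was higher (4.59% of all tested genes) and 1 lower (41.9%) with library totals. With TMM factors 2 were higher (15.9%) and 1 lower (16.5%). il1b (ENSDARG00000098700, chromosome 10), the gene of interleukin 1 beta that starts and spreads inflammation, was at 1.47 to 3.09 CPM in TP libraries (median 1.85) and at 0.161 to 1.59 CPM in control libraries (median 0.345). A single control pool, library 2, entered the TP range, and the next highest control pool was at 0.453 CPM. The log2 fold change was 1.93 ± 0.34 (adjusted p = 7.9e-05), and 2.62 without control library 2. il16 (ENSDARG00000102908, chromosome 7, 11242706 to 11342228), which encodes the precursor of a cytokine that attracts CD4 positive cells in mammals, was at 2.53 to 4.02 CPM in TP libraries (median 3.11) and at 4.45 to 7.04 CPM in control libraries (median 5.59). The groups did not overlap (log2 fold change -0.83 ± 0.12, adjusted p = 8.4e-06).

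il15l was higher with TMM factors alone (0.70, against 0.35 ± 0.13 with library totals, adjusted p = 0.0216). The remaining interleukins passed neither test. They included il15, which supports lymphocytes (-0.11 ± 0.11), il34, a growth factor of macrophages (-0.29 ± 0.18), il12bb, a subunit gene of interleukin 12 (0.08 ± 0.16), and the type 2 cytokine genes il4 (-0.12 ± 0.43) and il13 (-0.40 ± 0.32). Standard errors near 0.4 went with genes of 76 to 144 counts per group.

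Of 30 interleukin receptor genes 27 were tested, of which 3 were higher (4.59% of all tested genes) and 4 lower (41.9%) with library totals. With TMM factors 4 were higher (15.9%) and 1 lower (16.5%). IL1R2 (ENSDARG00000100461, unplaced scaffold KN149704.1, 25493 to 34245) encodes a decoy receptor that binds interleukin 1 without signalling. It was at 0.767 to 2.24 CPM in TP libraries (median 1.91) and at 0.313 to 1.22 CPM in control libraries (median 0.646). The lowest TP pool, library 1, and the highest control pool, library 7, made the groups overlap. The log2 fold change was 1.44 ± 0.25 (adjusted p = 7.3e-05), and it was called in each of the 16 fits that left out 1 library.

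il11ra (ENSDARG00000026736, chromosome 10, 13347491 to 13438601), the gene of the ligand-binding chain for interleukin 11, was at 39.9 to 46.0 CPM in TP libraries (median 42.2) and at 29.3 to 37.1 CPM in control libraries (median 34.5). Its increase was small, with a log2 fold change of 0.34 ± 0.06 (adjusted p = 1.4e-04), but every TP pool was above every control pool. il23r (ENSDARG00000052158, chromosome 6, 34884773 to 34911792), a receptor gene for interleukin 23, was at 1.47 to 3.05 CPM in TP libraries (median 2.55) and at 1.13 to 1.85 CPM in control libraries (median 1.55). Its groups overlapped, and the log2 fold change was 0.66 ± 0.17 (adjusted p = 0.0019). The longer of its transcripts, ENSDART00000149364, held 428 counts in TP libraries and 212 in control libraries, and the shorter one, ENSDART00000149356, held 246 and 224, although reads that fit both may have been placed on either.

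il13ra2 (ENSDARG00000039436, chromosome 5, 36501224 to 36517625), a decoy receptor gene for interleukin 13, was at 5.29 to 6.77 CPM in TP libraries (median 6.39) and at 9.93 to 15.5 CPM in control libraries (median 12.5). The pools of the groups stood apart. The log2 fold change was -1.04 ± 0.10 (adjusted p = 3.0e-08), whereas the gene of the signalling receptor il13ra1 was at -0.05 ± 0.10 (adjusted p = 0.70). Lower with library totals alone were il6r (-0.58 ± 0.10, adjusted p = 8.8e-05), il4r.1 (-0.44 ± 0.08, adjusted p = 1.8e-04) and il6st (-0.23 ± 0.07, adjusted p = 0.0084). With TMM factors they stood at -0.22, -0.09 and 0.12, so that il6st changed sign, and none was called. il6st also lost its call without TP library 1, 2, 3, 5, 6 or 7 or control library 1, 2, 3, 6 or 7 (edgeR adjusted p up to 0.0214). il10ra was higher with TMM factors alone (0.70, against 0.35 with library totals). The shared gamma chain genes il2rga (-0.62 ± 0.22) and il2rgb (-0.74 ± 0.29), the beta chain gene il2rb (-0.53 ± 0.18) and il7r (-0.50 ± 0.27), whose products serve lymphocytes, passed neither test.

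The IL1RAPL proteins resemble interleukin 1 receptors and organise synapses of neurons. il1rapl1b (ENSDARG00000104853, chromosome 11, 43956357 to 43965349) was at 0.295 to 0.966 CPM in TP libraries (median 0.598) and at 0.906 to 2.76 CPM in control libraries (median 1.38). Its groups met at the edges, with a log2 fold change of -1.23 ± 0.27 (adjusted p = 7.0e-04). il1rapl1a (-0.19 ± 0.14) and il1rapl2 (-0.32 ± 0.15) were not called, and neither was IL4I1, the gene of an amino acid oxidase (-0.13 ± 0.46, 82 counts in TP libraries and 96 in control libraries).

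Genes of a ligand and its receptor are set side by side here for a few axes. For the Cxcl12 ligands, cxcl12a was at 55.4 to 62.7 CPM in TP libraries (median 60.7) and at 54.8 to 67.9 CPM in control libraries (median 61.1), whereas cxcl12b was at 14.3 to 19.5 CPM in TP libraries (median 17.17) and at 20.3 to 30.4 CPM in control libraries (median 23.0). The cxcl12a pools lay in the same range in both groups, and both cxcr4 genes fell with both scalings. The atypical receptor gene ackr3b, whose product takes up Cxcl12, had a log2 fold change of -0.70 ± 0.09 (adjusted p = 1.8e-06) and was lower with both scalings. For the Ccl25 axis, ccl25b fell with both scalings, and ccr9a and ccr9b with library totals alone. For interleukin 6, the cytokine gene il6 had 18 counts in TP libraries and 16 in control libraries, il6r and the shared signalling chain gene il6st are given above, and il11a, a ligand that uses the same chain, was at 0.03 ± 0.38 while il11ra rose.

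**Figure D3:**
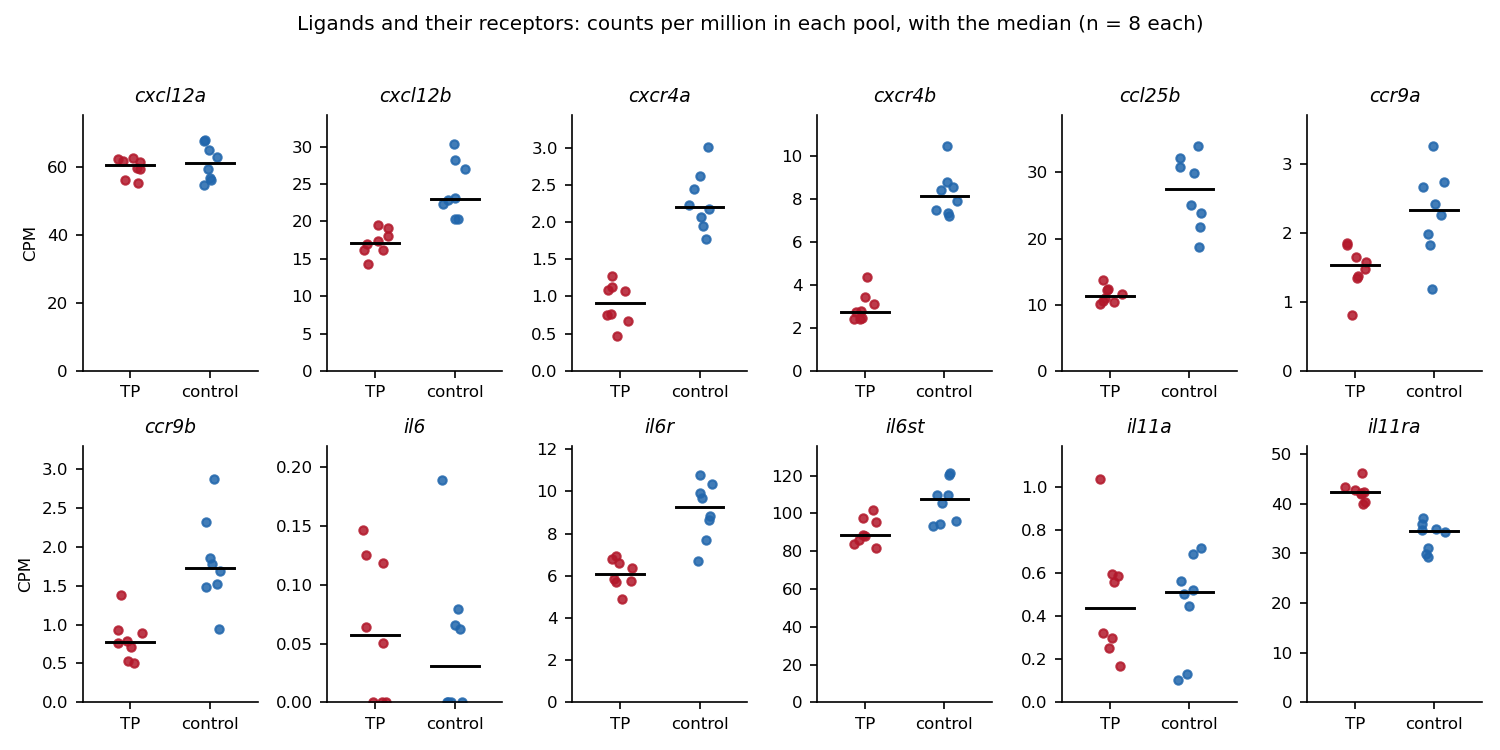
CPM in each pool for 12 genes of the Cxcl12, Ccl25, interleukin 6 and interleukin 11 axes, TP left and control right, with the median as a line (n = 8 each). Points of cxcl12a lie between 54.8 and 67.9 CPM in both groups, while all TP points of cxcr4a, cxcr4b and ccl25b lie below the control points.

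The 51 members below the low-count filter included the cytokine genes with the highest ratio of TP to control. Their raw counts are given here, with the ratio of counts per total and its exact 95% interval, which was computed on read pairs rather than single counts and covers counting error only. The test of these genes is edgeR's with no filter, adjusted over 30216 genes. It used the counts as deposited and was not repeated on halved counts. If both mates of a pair were counted, each pair entered it as 2 counts. Counts of such calls are a description. Among the 50 with any count, 9 (18.0%) were higher in TP, against 6.73% of all genes below the filter, and 1 was lower, against 2.10%. TP libraries held more counts than control libraries in 33 of the 50 and fewer in 16. All 9 were also higher with TMM factors, and 7 of them were called whichever library was left out. The exceptions were ccr7 and cxcl11.7.

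il10 (ENSDARG00000078147, chromosome 11, 20977380 to 20978935), the gene of an anti-inflammatory cytokine, had 8, 6, 10, 12, 10, 10, 4 and 4 counts in the TP libraries 1 to 8. Among control libraries it had 4 in library 2, 2 in library 8 and 0 in the other 6. In CPM this was 0.102 to 0.314 in TP libraries (median 0.2496) and 0 to 0.0647 in control libraries (median 0), so the groups did not overlap. The ratio was 10.7 (3.35 to 54.7), with a log2 fold change of 3.36 ± 0.65 (edgeR without filter, adjusted p = 1.8e-04), and of 4.10 without control library 2.

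Its neighbour il19l (chromosome 11, 20935771 to 20939215), an interleukin 10 family gene by its name, had 4, 4, 8, 8, 6, 6, 4 and 4 counts in TP libraries and 0 in every control library. It was called higher in TP (edgeR without filter, adjusted p = 3.7e-05). With a floor of 3 read pairs set in place of 0 for the 8 control libraries, the ratio would be 7.36. The exact 95% interval of the ratio began lower, at 5.50. il6 (ENSDARG00000102318, chromosome 19), an inducer of the acute phase response, had 2, 0, 6, 0, 4, 4, 0 and 2 counts in TP libraries and 6, 6, 0, 2, 2, 0, 0 and 0 in control libraries. The groups overlapped in full, and the ratio of 1.13 had an interval of 0.387 to 3.36. No change was called, and by counting error alone a ratio inside that interval could not be told from no change.

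The CC chemokine genes ccl34b.9 (98 counts in TP libraries and 2 in control libraries, ratio 49.2, interval 8.43 to 1982, adjusted p = 5.6e-06) and ccl34b.8 (62 and 2, ratio 31.1, interval 5.19 to 1269, adjusted p = 9.1e-05) had counts in all 8 TP libraries and in 1 control library each. Without that library the fitted log2 fold change of ccl34b.9 was 6.66 in place of 5.03 (control library 4) and that of ccl34b.8 was 5.97 in place of 4.34 (control library 8). Those fits had no control count for the gene, so their values depend on the model's prior count. ccl34b.3 had 90 counts in TP libraries and 10 in control libraries (ratio 9.04, interval 3.60 to 29.2, adjusted p = 7.3e-04), and the call remained without control library 4 (log2 fold change 3.59 in place of 3.04).

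ccl39.1 had 74 counts in TP libraries and 8 in control libraries, but TP library 4 alone held 32 of the 74. Its log2 fold change of 3.25 (adjusted p = 0.0027) was 4.31 without control library 2. For ccl35.1 the sums were 106 counts in TP libraries and 28 in control libraries (ratio 3.80, interval 2.08 to 7.42, adjusted p = 0.0010). cxcl11.7, of the Cxcl11 group that attracts T cells in mammals, had 24 counts in TP libraries and 2 in control libraries (adjusted p = 0.0046). It was not called without TP library 5 (adjusted p = 0.0113), and its log2 fold change of 3.23 was 4.57 without control library 2, the only one with a count.

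ccr7, whose product leads dendritic cells and T cells to lymphoid tissue in mammals, had 80 counts in TP libraries and 24 in control libraries, of which 14 were in control library 2. Its log2 fold change was 1.90 (adjusted p = 0.0063) and 2.46 without control library 2. The call was lost without any one of TP libraries 1, 3, 4, 6 and 7 or control libraries 1, 3, 4, 5, 7 and 8 (highest adjusted p = 0.0166). il21r.2, a receptor gene of interleukin 21, was the only lower one, with 2 counts in TP libraries and 28 in control libraries (ratio 0.0717, interval 0.00170 to 0.471, adjusted p = 0.0073). It was not called with TMM factors (adjusted p = 0.0197) and remained called in 4 of the 16 fits that left out 1 library, the highest adjusted p being 0.0204 (without control library 2, which held 12 of the 28). Its log2 fold change of -3.09 was -4.74 without TP library 7, the only TP library with a count.

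Other members below the filter were not called with library totals. Those with more counts in TP libraries included xcr1a.1 (88 in TP and 22 in control), il12a, a subunit gene of interleukin 12 (76 and 30), ccl27b (76 and 32), il11b (76 and 32), ccr12b.1 (56 and 16), cxcl32b.1 (56 and 16), il22ra2, a soluble interleukin 22 receptor gene (46 and 12), cxcl11.3 (42 and 8), cxcr2, a Cxcl8 receptor gene (34 and 10), ccl35.2 (32 and 6) and il26 (18 and 2). Further genes of this kind were ccl39.5 (22 and 4), il1rl1 (ENSDARG00000068609, 22 and 4), il17c (20 and 8), IL12B (20 and 12), cxcl11.4 (16 and 2) and il17a/f2 (10 and 0). The cxcl11 genes cxcl11.5 (22 and 12), cxcl11.6 (18 and 10) and cxcl11.1 (10 and 10), and likewise il12ba (30 and 22) and ccl32a.2 (14 and 12), had closer sums. Control library 2 held 18 of the 30 control counts of il12a, and without it il12a had an adjusted p of 0.0087. Those with fewer counts in TP libraries included ccl20a.3 (36 in TP and 90 in control, 40 of them in control library 2), ccr6b (48 and 86), il12b2 (52 and 84), il17d (78 and 108), ccl38a.4 (36 and 62) and il21 (12 and 34). Smaller sums were those of ccl39.3 (26 and 44), ccr8.1 (20 and 34), ccl38a.5 (30 and 40), ccl34a.3 (6 and 16) and il22 (4 and 10). Nearly equal were the second il15l gene (ENSDARG00000097067, 82 and 92), ccl39.6 (78 and 80) and ccl33.2 (10 and 12). The remaining 4 had under 10 counts in all. Among these, ccl39a.10 was at 0 in all 16 libraries.

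**Figure D4:**
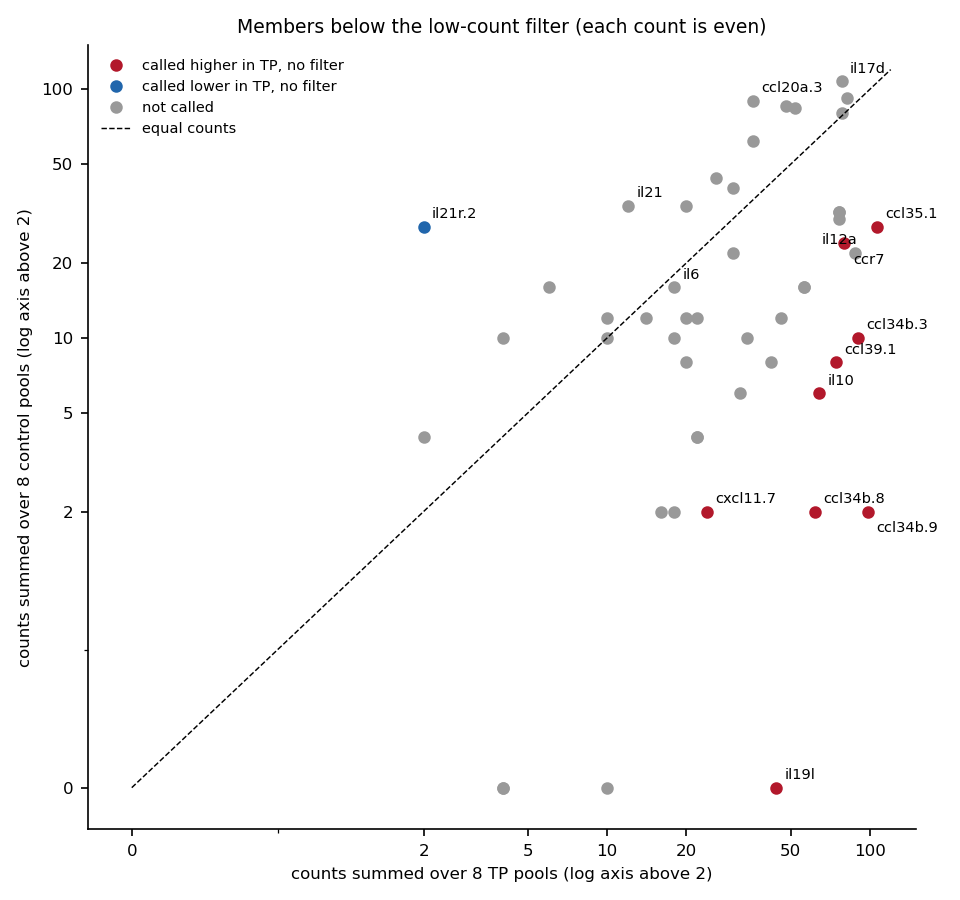
Counts summed over the 8 TP pools (horizontal) and the 8 control pools (vertical) for the 50 members below the low-count filter with any count, on axes that are linear up to 2 and logarithmic above. Red points were called higher in TP by edgeR without a filter and lie right of the line of equal counts, with il19l at 44 and 0. The blue point, il21r.2 at 2 and 28, was called lower.

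Many members lie in tandem. With a gap of at most 200000 bases between neighbours, 62 members fell into 20 groups. On chromosome 24 (27318196 to 27433692) the 5 ccl34b genes and cxcl32b.1 each had more counts in TP libraries, and the sum was 1530 in TP libraries and 1080 in control libraries. ccl34b.1 made up most of it, with 952 and 902 counts (log2 fold change 0.14 ± 0.17, not called). On chromosome 25 (12745435 to 12954454) ccl33.3 fell, while ccl39.1 and ccl35.1 rose in the fit without filter, and the sum of the 10 genes there was 766 in TP libraries and 1048 in control libraries. The nearby ccl39.7 (164 and 196 counts) and ccl39.2 (140 and 116) were not called. The il10 and il19l pair had 108 counts in TP libraries and 6 in control libraries, and ccl44 and ccl25b on chromosome 11 had 4354 counts in TP libraries and 9258 in control libraries, of which ccl25b held 3224 and 7800. Reads may be divided among near-identical tandem copies, so single-gene values within such a group are uncertain.

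**Figure D5:**
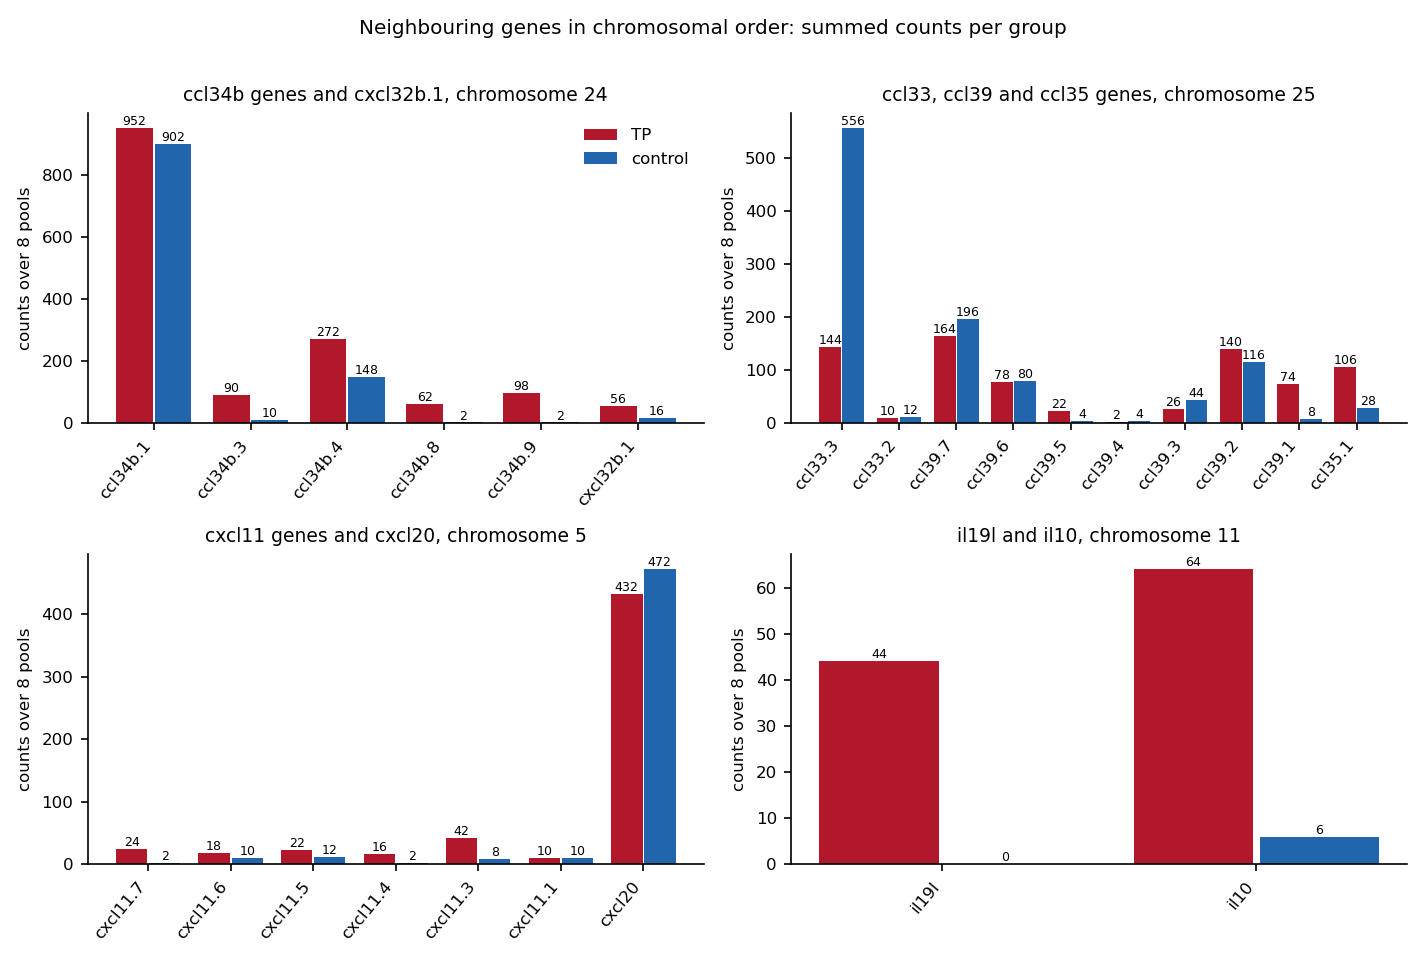
Summed counts in TP (left bars) and control (right bars) libraries for 4 groups of neighbouring genes in chromosomal order, with the sum written on each bar. In the chromosome 25 group ccl33.3 has 144 counts in TP and 556 in control, while ccl35.1 at the other end has 106 and 28.

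Paralogous genes were set side by side in 15 pairs, of which 8 had both genes tested. Their difference was not tested. The log2 fold changes of cxcr4a and cxcr4b were close at -1.33 and -1.48, as were those of il17ra1a and il17ra1b at -0.19 and -0.18 and il2rga and il2rgb at -0.62 and -0.74. il1rapl1a and il1rapl1b were farthest apart, at -0.19 and -1.23. Between these were cxcl8b.1 and cxcl8b.3 (0.37 and -0.22), ccr9a and ccr9b (-0.62 and -1.14), cxcl12a and cxcl12b (-0.03 and -0.50) and ccl19a.1 and ccl19b (-0.12 and -0.45).

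Members were ranked by level, as the group median of CPM per kilobase. Each transcript's counts were divided by its own length and then summed by gene. ccl25b had rank 5 in TP libraries (13.6 CPM per kb) and rank 1 in control libraries (33.1). IL1RL1 (ENSDARG00000101527), a receptor gene named after the interleukin 33 receptor, had rank 1 in TP libraries (26.6) and rank 2 in control libraries (26.8). cxcl12a followed with rank 2 in TP (19.95) and rank 4 in control (20.1), and il11ra had rank 3 in TP (15.0) and rank 7 in control (12.3). cxcl14 had rank 7 in TP (11.5) and rank 3 in control (23.0). il6st stood at 14.8 in TP and 18.4 in control, and IL17RC at 12.5 in TP and 13.9 in control. Counts were concentrated in few members, as 9 of the 134 held 10000 counts or more over all libraries, and 37 held fewer than 100.

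Other genes of the pathway came from a list of JAK, STAT and SOCS genes, adaptors, inflammasome genes, atypical chemokine receptors and related receptor chains, of which 43 of 45 were tested. With library totals 1 was higher (4.59% of all genes) and 23 were lower (41.9%), and with TMM factors 6 were higher (15.9%) and 8 lower (16.5%). The median log2 fold change was -0.31, against -0.35 over all genes. irak3, which encodes a brake on interleukin 1 receptor signalling, was the one that rose (1.70 ± 0.22, adjusted p = 2.5e-06). The SOCS proteins restrain JAK and STAT signalling. Of their tested genes, cish was lower with library totals alone (-0.42 ± 0.13, edgeR adjusted p = 0.0085, and -0.10 with TMM factors). The others were lower with both scalings: socs2 (-1.43 ± 0.10), socs1a (-1.36 ± 0.27), socs3b (-0.78 ± 0.09) and both gene IDs named socs3a (-1.69 ± 0.17 and -1.72 ± 0.18). Those IDs had nearly the same counts, 1710 and 1724 in TP libraries and 5232 and 5386 in control libraries, and may share reads. socs1b, below the filter, had 110 counts in TP libraries and 32 in control libraries. jak3 (-0.87 ± 0.16), which works with the shared gamma chain, was also lower with both scalings. jak1, stat5a and myd88 were at -0.06, -0.04 and 0.03 with library totals, not called, and higher with TMM factors.

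Leukocyte markers were looked at as well, in lists by cell type. The summed level of 7 thymus and T cell markers was 3.66 to 7.13 CPM in TP libraries (median 5.23) and 11.7 to 16.1 CPM in control libraries (median 14.0), with no overlap and no marker at 0. rag1, needed for T cell receptor rearrangement, led it at -1.99 ± 0.19 (adjusted p = 2.8e-08), with ikzf1 (-1.29), zap70 (-1.10) and lck (-0.98) also lower with library totals. In all 4 of 5 tested were lower (41.9% of all genes), and 2 with TMM factors (16.5%). cd8a, below the filter, went the other way with 68 counts in TP libraries and 22 in control libraries. The sum of 15 macrophage genes was 73.0 to 99.3 CPM in TP libraries (median 88.0) and 103 to 133 CPM in control libraries (median 113). Of these, 7 of 12 tested genes were lower (41.9% of all genes), and 3 with TMM factors (16.5%). The sum of 6 pan-leukocyte genes was 30.2 to 38.3 CPM in TP libraries (median 34.3) and 38.6 to 51.5 CPM in control libraries (median 44.97), with 2 of 6 lower, a share below that of all genes, and 1 with TMM factors. The sum of 8 genes listed for neutrophils was 1076 to 1350 CPM in TP libraries (median 1128) and 977 to 1229 CPM in control libraries (median 1042). Most of it was cpa5 (310646 counts in TP libraries and 293182 in control libraries, not called). No other gene of the list had more than 4504 counts in either group. Whether the cpa5 reads came from neutrophils was not tested, so this sum is no measure of neutrophils. Of the 8 listed genes 4 were lower (41.9% of all genes), among them npsn (-1.25) and lyz (-0.90), and 2 with TMM factors (16.5%). The T cell, macrophage and pan-leukocyte sums moved in the same direction as ccl25b, the ccr9 genes, the cxcr4 genes and il16, and opposite to il1b, IL1R2 and ccr2. Lower was also the direction of the median of all tested genes with library totals (log2 fold change -0.35). The neutrophil sum had a higher median in TP libraries, and its groups overlapped, but this sum mainly followed cpa5. Among the other genes of that list mpx, lyz, npsn, nccrp1 and csf3r had fewer counts in TP libraries. More counts in TP libraries were found for cebp1 (312 against 272) and ncf1 (1026 against 1020). With TMM factors the list medians were -0.76 (T cell), -0.23 (macrophage), -0.07 (pan-leukocyte) and 8.0e-04 (neutrophil list, cpa5 included). The part of these cell types in the results was not tested, and in whole larvae fewer cells of a type and less RNA per cell cannot be told apart.

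Libraries also differed in composition. A single gene, si:dkey-153m14.1, took 0.548% to 0.922% of counts in control libraries 1 to 4, 0.900% and 1.41% in TP libraries 3 and 4, and 2.16% to 6.42% in the other 10. Within the libraries under 2%, 2 TP and 4 control, ccr2 was at 2.89 (adjusted p = 0.0066), IL1R2 at 1.68 (adjusted p = 0.0077), cxcr4b at -1.30 (adjusted p = 0.0051) and ccl25b at -1.37 (adjusted p = 0.0053) by edgeR. Within those at or over 2%, 6 TP and 4 control, the log2 fold changes were 1.86 for ccr2, 1.29 for IL1R2, -1.48 for cxcr4b and -1.13 for ccl25b, all called. il1b was at 1.63 within the first set (adjusted p = 0.0723), which holds control library 2, and at 2.64 within the second set (adjusted p = 1.0e-05). ccr12b.2 was at 0.41 within the first set (adjusted p = 0.59) and at 1.67 within the second (adjusted p = 0.0070).

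Another 8 genes carry a current name of these families but an older deposited symbol and, unlike ccr2, were not added as members. Among them cxcl8a, a neutrophil attractant gene, had 158 counts in TP libraries and 526 in control libraries, and il7, a growth factor gene of lymphocytes, had 278 and 570. CCR8 by its current name had 17974 and 17866, and il23a had 0 in both. They entered no count above.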

How the data were processed

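Total RNA of 16 pools of 30 WIK larvae was sequenced by the authors as paired reads. Per the study's methods, reads were aligned with Bowtie2 to Ensembl transcripts of release 84 (GRCz10) and only concordant pairs were kept. The deposited values are raw counts for each of 57264 transcripts, not normalized. Where a read fits several isoforms or copies, its placement among them is uncertain. Use of strand in counting was not stated in the sources used here. The submitters' processing notes also name FastQC, SAMtools and limma, without versions.

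Counts were summed by gene ID. The 209 transcripts without a gene ID (0.220% to 0.282% of counts) stayed in the totals only. The groups were compared with edgeR 4.0.16 (R 4.3.3) by its quasi-likelihood F test, scaled by library totals alone after filterByExpr, and p values were adjusted over all genes tested (Benjamini-Hochberg, threshold 0.01). Each standard error was derived as log2 fold change over √F. The script was tested on simulated data. Current symbols were matched for 124 of the 134 members through RefSeq names only.

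The members and lists were chosen with earlier results of these data known. Full values are given for members called alike with library totals and TMM factors and for il1b, il6, il10 and ccr2, and raw counts for members below the filter with 10 counts or more. Other members are named where they illustrate a group. Alternatives were TMM factors, totals without ribosomal and mitochondrial RNA, DESeq2 1.42.0, limma 3.58.1 on log2 counts with a pseudocount of 1, other filters, a threshold of 0.05, halved counts, a replicate block, subsets of libraries and leaving out each library. For members below the filter, the leave-one-out and TMM fits without filter were chosen after seeing the data. Replicates are separate dishes. No pair of libraries in a group agreed within sampling noise, the chi-square per degree of freedom being at least 4.12 among TP and 3.85 among control libraries. The planned motif search in promoters was not run, as no promoter sequence was used here. Intervals cover counting error only.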

Additional observations from a re-analysis of the deposited data

Results flagged for a closer look

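Dixon's test was applied to the 8 pools of each group for 16 members (32 groups), and 5 groups held a library apart from the others. For normally distributed values chance gives about 1 in 20. CPM values of low counts need not be so distributed, so that rate is only a rough guide here. All 5 were control libraries with a high value, in different libraries except for library 1. il1b was at 1.59 CPM in control library 2, against 0.161 to 0.453 CPM in the other 7. ccl33.3 was at 2.72 CPM in control library 8, against 1.61 to 2.03 CPM in the others. IL1R2 was at 1.22 CPM in control library 7, against 0.313 to 0.742 CPM in the others. il1rapl1b was at 2.76 CPM in control library 1, against 0.906 to 1.62 CPM in the others. il6 was at 0.189 CPM in control library 1, which is 6 counts, against 0 to 0.0795 CPM in the others. Control library 2 was the deepest, and it also held 14 of 24 control counts of ccr7, 18 of 30 of il12a and 40 of 90 of ccl20a.3.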

How the results depend on the processing

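Higher members numbered 6 with library totals (4.59% of all genes), 12 with TMM factors (15.9%), 14 with DESeq2 (17.9%) and 14 with no filter (4.84%). Lower members numbered 16 with library totals (41.9%), 8 with TMM factors (16.5%), 9 with DESeq2 (17.8%) and 27 at an adjusted p of 0.05. For the other settings in this section the share of all genes was not computed, and their counts are a description only. Within the libraries under 2% si:dkey-153m14.1, which are fewer, 2 members were higher and 7 lower, and 10 were lower within those at or over 2%. Leaving out 1 library gave 5 to 7 higher and 13 to 17 lower members. At an unadjusted p under 0.05, edgeR gave 9 higher and 30 lower members. Among the signalling genes, 1 was higher with library totals, 6 with TMM factors, 6 with DESeq2, 2 with no filter and 2 with control libraries 1 to 4 only, and always 1 when 1 library was left out. The 23 lower ones became 8 with TMM factors, 8 with DESeq2, 15 with totals without ribosomal and mitochondrial transcripts, 5 and 14 within the libraries under and at or over 2%, 15 with control libraries 5 to 8 only, and 20 to 24 without 1 library. For the scaling, threshold and filter the cause is their construction, and for the other settings the cause was not tested.

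The 14 members described in full kept their direction under every alternative run. Halving the counts left ccr2 and ccr12b.2 below the filter, so they had no value there. Besides ccr12b.2, calls were lost for il23r in 4 settings and il1rapl1b in 3 (all of them subsets of libraries), and for cxcr4a, il11ra and il1b within the libraries under 2%. With the last digit of the sample title as a replicate block, 5 members were higher and 12 lower, and signalling counts were 1 and 23. Same-numbered libraries correlated at -0.17 to 0.30, over 0.1 in 4 of 8 pairs, and 3 of the TP libraries correlated best with the control library of their own number. As not every pair was over 0.1 and no label ties them, the digits were not taken as pairing the libraries. For members below the filter, leaving out 1 library gave 8 to 10 higher and 0 to 1 lower.

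Depth limits how small a change can be seen in the rare genes, of which il6 with 18 and 16 counts is an example.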
